A study of Mus musculus with 15 samples.

Results

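Colonic crypts of mice kept on a normal diet with a normal liver were described gene by gene, with no comparison between groups. The libraries were the 5 labelled NL-shGFP, out of 15 in the series, all RNA-seq of colonic crypts. Per the labels, these mice were wild type (WT) and received AAV-shGFP, a viral vector carrying a short hairpin RNA against green fluorescent protein, a sequence that wild-type mouse cells do not have. The 10 remaining libraries came from mice with a fatty liver (FL-shGFP and FL-shAlpl) and were not used. The labels state neither the tissues the vector reached, the age and sex of the mice, a batch, nor whether the 5 replicates were separate animals, so the spread given here is a spread between libraries. No untreated or uninjected mice stand beside them, so the vector and the state of the crypts cannot be told apart.

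The colonic crypt is a tube of epithelium one cell layer thick that renews itself throughout life. Stem cells at its base, marked by Lgr5, give rise to dividing progenitors, which mature on their way up into absorptive colonocytes, mucus-secreting goblet cells, hormone-secreting enteroendocrine cells and chemosensory tuft cells. The goblet and colonocyte products form and defend the mucus barrier towards the bacteria of the gut, and the transporters of the colonocyte recover salt and water. In RNA from whole crypts, fewer cells of a type and less RNA per cell cannot be told apart.

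Levels are the deposited FPKM values rescaled within each library to the same total over nuclear genes (nuclear TPM, written TPM), which makes genes comparable per length and takes the RNA of the mitochondrial genome out of the total. Values given in a row are those of replicates 1 to 5 in that order, and ± is the SD with n = 5 libraries. Ranks run over 32914 nuclear genes by the mean level. The libraries held 33272941 to 41352922 counts, of which 28.0% to 37.5% came from mitochondrially encoded genes (mean 33.2% ± 3.98). Small counts were mostly even (74.8% to 76.0% of counts from 1 to 12), so most fragments may enter as 2.

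The 5 libraries did not stand equally far from each other. Replicates 1 and 2 differed by a median of 0.11 on the log2 scale over 8894 genes at a mean of 10 TPM or more, and replicates 3 and 4 by 0.07. The other 8 pairs differed by 0.14 to 0.29, and the 4 pairs that held replicate 5 had 310 to 494 genes at least 2-fold apart against 40 and 44 in the close pairs. Counting noise alone would give a median chi-square per gene of 0.910, with a fragment counted as 2. The close pairs were at 1.52 (replicates 3 and 4) and 2.70 (replicates 1 and 2), both beyond counting noise, and all 5 were kept as separate replicates. Scaling also matters here, since the median gene at 10 TPM or more lay 0.10 above its own mean over libraries in replicate 5 and 0.08 below it in replicate 2 on the log2 scale. Directions between libraries were therefore also read with median-of-ratios size factors, which set these medians near 0 and moved replicate 5 against replicate 2 by 0.18.

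Secreted products and parts of the translation machinery were prominent at the top of the crypt transcriptome, beside pseudogenes of mitochondrial sequence. The 10 most abundant genes held 10.7% of nuclear transcripts (10.1% to 11.5% by each library's own 10), the 100 most abundant 31.3%, and the 1000 most abundant 64.0%. Among these 10 was Gm29216, a pseudogene that shares sequence with mitochondrial genes, at rank 8 (7018 ± 2318 TPM). Similar pseudogenes, Gm28661, Gm10925 and Gm28437, held ranks 14, 16 and 20. By mean level, 15137 genes reached 1 TPM, 8897 reached 10 TPM, 1667 reached 100 TPM and 124 reached 1000 TPM. Protein-coding genes made up 80.9% of those at 1 TPM and 92.9% of those at 10 TPM, and 13385 genes were at 1 TPM or more in every library. Only 99 genes were at 1000 TPM or more in all 5.

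Reg3b, a lectin secreted by the gut epithelium that acts on bacteria, was the most abundant nuclear gene with 9754, 10126, 17806, 19345 and 16714 TPM (mean 14749 ± 4490.4). Spink4, a small secreted peptide of goblet cells, came next with 17461, 19328, 13002, 11392 and 12418 (mean 14720.4 ± 3467). They were high in different libraries, Reg3b in replicates 3, 4 and 5 and Spink4 in replicates 1 and 2. Eef1a1, the factor that brings transfer RNA to the ribosome, had a mean of 13399.7 ± 1919.8, and Car1, carbonic anhydrase 1 of the colonocyte, was next at 11924 ± 6565. Agr2, a protein disulfide isomerase needed for mucin folding, followed with 10938, 11006, 12414, 12416 and 11833 (mean 11721 ± 725). Agr2 kept a narrow range, whereas Car1 ran from 5984 in replicate 5 to 19309 in replicate 2. Among protein-coding genes the next places went to Rplp1, a protein of the ribosomal stalk (11124 ± 939), Lypd8, a colonocyte protein that holds flagellated bacteria away from the epithelium (9975 ± 2661), and Retnlb, a goblet cell protein with antibacterial action (6171 ± 1006).

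Muc2, the gel-forming mucin of the colonic mucus, was at 6424, 5608, 6169, 5629 and 5874 TPM (mean 5941 ± 353, rank 10). The coefficient of variation (CV, the SD over the mean) of Muc2 was 5.94%, small beside that of Car1 (55.1%). Further goblet or mucus genes among the 30 most abundant protein-coding genes were Klk1, a secreted serine protease (5576 ± 741), Tff3, a trefoil peptide of the mucus (3418 ± 199), and Zg16, a mucus lectin (2734 ± 747). Guca2a, the guanylin precursor that acts on epithelial fluid secretion, was at 4154, 4446, 3217, 3417 and 2781 (mean 3603 ± 685). Replicates 1 and 2 held the higher values of both Zg16 and Guca2a and replicate 5 the lowest. Dmbt1, a secreted scavenger receptor protein of the mucosal surface, ran the other way, from 3519 in replicate 2 to 5500 in replicate 5. The epithelial proteins in this set were the galectin Lgals4 (5269.5 ± 331) and the keratins Krt8 (4658 ± 691) and Krt19 (3470.1 ± 114).

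The order among the leaders was not fixed. All 29 pairs of neighbours in the ranking of the 30 had overlapping ranges over the 5 libraries, and for none did the same gene lead in all 5. Car1 was first in replicate 1, Spink4 in replicate 2 and Reg3b in replicates 3, 4 and 5. The membership was steadier than the order, since each library's own 30 shared 28 or 29 genes with the 30 by mean. Per length matters as much, because without division by length Muc2, with an implied length of 13916 bases, stood first at 28003 CPM of nuclear counts, and 18 of the 30 genes remained in the set.

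**Figure D1:**
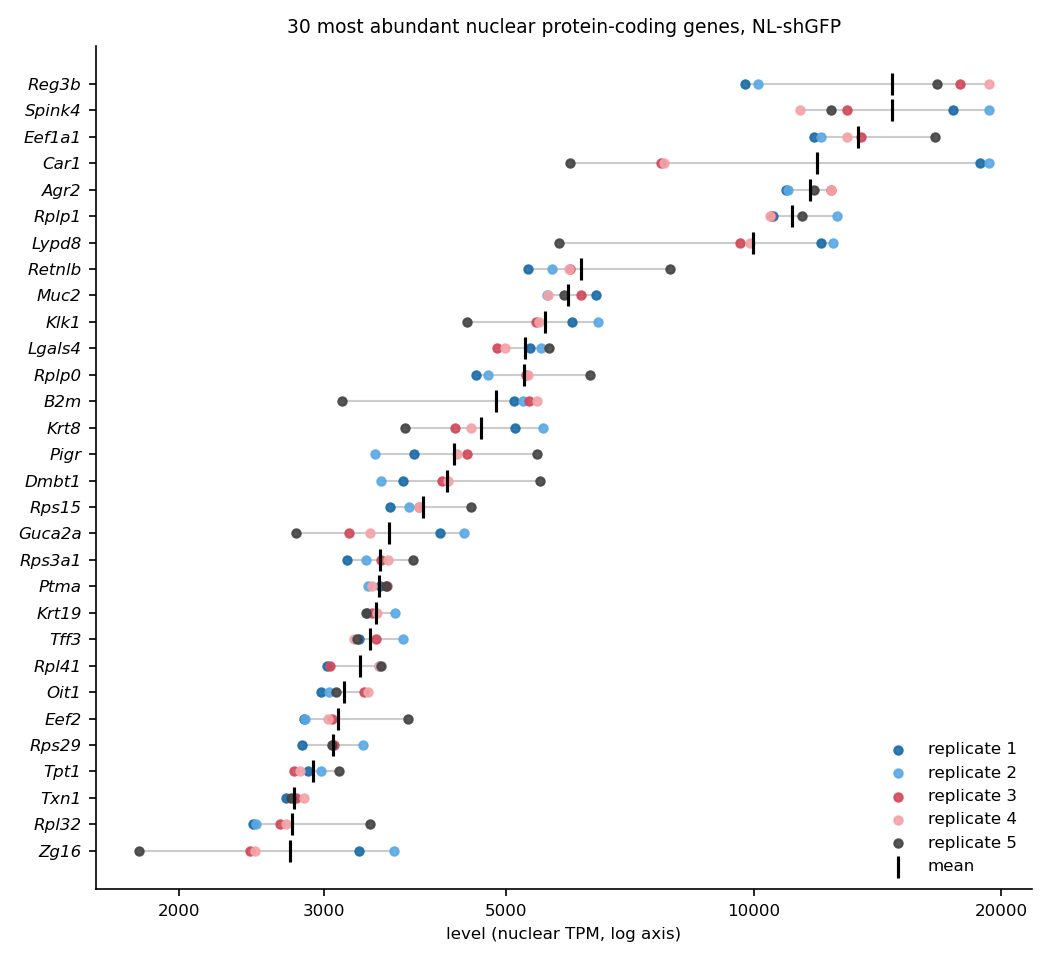
The horizontal log axis gives the level in nuclear TPM of the 30 most abundant nuclear protein-coding genes (vertical axis, in order of the mean), with a coloured point for each of the 5 NL-shGFP libraries, a grey line over their range and a black tick at the mean. Car1, Lypd8 and Zg16 have replicate 5 at the low end, while Ptma, Krt19 and Txn1 have all 5 points close together.

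Sets of genes with a common role took these shares of nuclear transcripts, and some genes counted in more than 1 set. The 79 genes of cytosolic ribosomal proteins, which build the ribosome outside the mitochondrion, held 9.80% ± 0.705, and 75 of them were at 100 TPM or more. The 26 genes of mucus and secreted goblet products held 7.39% ± 0.197, with library sums of 73206, 76795, 74600.5, 73632 and 71444 TPM. On this scale these sums lay closer together than the members' own values, and with size factors they ran from 66697 to 81329.9, a CV of 7.02%. For single members, the median CV of the 18 members at 10 TPM or more was 23.8% against 10.3% for all protein-coding genes at that level. Nuclear-encoded subunits of the respiratory chain held 4.08% ± 0.121 over 97 genes, led by Cox8a, a subunit of cytochrome c oxidase (2585 ± 133). Translation factors held 2.98% ± 0.311, chaperones and folding enzymes of the endoplasmic reticulum 2.32% ± 0.264, and cytoskeletal and keratin genes 2.79% ± 0.247. Carbonic anhydrases, which supply bicarbonate for transport, held 1.36% ± 0.669. Their library sums of 20664, 21118, 9428, 9485 and 7428 TPM were far higher in replicates 1 and 2 than in the others. Most of this was Car1, with a mean of 11924 TPM beside 13624.5 for the set. Over the 7 members at 10 TPM or more the median CV was 13.75%, and the highest was 55.1%. On the scale of the nuclear total, the respiratory chain and proteasome sets had narrow spreads, with median CVs of 5.36% and 7.04%. There 42 of 92 respiratory chain genes at 10 TPM or more had a CV under 5%, against 995 of all 8262 protein-coding genes at that level whose counts were 10 or more in every library. With size factors the CV of the respiratory chain sum rose from 2.96% to 7.01% and that of the proteasome sum from 3.38% to 6.86%. The CV of the ribosomal protein sum fell from 7.19% to 5.50%.

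Near-identical copies limit some of these levels, because the counting rule behind the table is not given in the sources used here. Pseudogenes that shared at least 30% of their 31-base words with a named gene or a member of a functional set numbered 882, and they held 2.56% ± 0.173 of nuclear transcripts. For ribosomal proteins, 508 such pseudogenes held 1.62% ± 0.184, so genes and copies together came to 11.4% ± 0.813. In 22 genes the copies held more than the gene itself. Rps10, a ribosomal protein, was at 5.60 TPM while its 2 copies summed to 643, and Rpl23 was at 1024 against 2232 in 1 copy. A further 1.73% to 2.75% of the nuclear total came from 7 pseudogenes that share 97.2% to 100% of their 31-base words with mitochondrial genes, and they were left in that total. A gene without a symbol in the reference, ENSMUSG00000119584, had rank 15 at 4905, 5028, 6175, 3243 and 5666 TPM.

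Promoters of the leading genes were read from RefSeq (GRCm38.p6), where 13994 protein-coding genes had a window of 250 bases before to 50 bases after a start site. Stretches of 10 are shown for a feature that a larger share of the most abundant genes held than of the rest, the letters TATAA on the gene's strand beginning 40 to 20 bases before the start, where a TATA box lies in promoters that have it. The 80 bases before the start are printed 5′ to 3′, with TATAA in capitals where it fell in that window. The first 6 genes have it and the last 4 do not, and all 10 were picked after their promoters had been read.
Reg3b: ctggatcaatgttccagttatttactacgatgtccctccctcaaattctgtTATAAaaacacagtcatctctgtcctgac
Muc2: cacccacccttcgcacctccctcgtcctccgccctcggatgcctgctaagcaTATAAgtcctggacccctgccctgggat
B2m: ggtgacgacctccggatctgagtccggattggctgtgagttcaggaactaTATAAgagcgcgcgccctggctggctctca
Reg4: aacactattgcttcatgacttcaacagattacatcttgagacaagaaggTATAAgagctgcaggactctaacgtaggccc
Rps26: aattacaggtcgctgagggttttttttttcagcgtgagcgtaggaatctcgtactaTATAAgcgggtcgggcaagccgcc
Reg3g: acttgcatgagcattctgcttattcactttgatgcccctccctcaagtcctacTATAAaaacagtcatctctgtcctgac
Eef1a1: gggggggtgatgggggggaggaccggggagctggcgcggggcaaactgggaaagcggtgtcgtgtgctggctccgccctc
Agr2: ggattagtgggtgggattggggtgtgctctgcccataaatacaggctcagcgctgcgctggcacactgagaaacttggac
Klk1: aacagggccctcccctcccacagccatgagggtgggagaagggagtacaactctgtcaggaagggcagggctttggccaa
Lgals4: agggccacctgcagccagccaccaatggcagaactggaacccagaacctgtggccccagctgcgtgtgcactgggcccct

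These stretches lie at chr6:78370805-78370884 (+ strand) for Reg3b, chr7:141690260-141690339 (+ strand) for Muc2, chr2:122147607-122147686 (+ strand) for B2m and chr3:98222076-98222155 (+ strand) for Reg4. The others lie at chr10:128626507-128626586 (- strand) for Rps26, chr6:78468875-78468954 (- strand) for Reg3g, chr9:78481725-78481804 (- strand) for Eef1a1, chr12:35992845-35992924 (+ strand) for Agr2, chr7:44225280-44225359 (+ strand) for Klk1 and chr7:28833714-28833793 (+ strand) for Lgals4. All are upstream flanks that end 1 base before the annotated start. In Reg3b and its neighbour in function Reg3g the motif begins 29 and 27 bases before the start. Of the 72 genes among the 100 most abundant protein-coding genes that had a window, 11 (15.3%) held TATAA there. The share was 5.33% in the genes ranked 101 to 1000, 2.74% in the remaining genes at 1 TPM or more and 6.77% in the genes under 1 TPM. Over all 13994 genes with a window it was 4.18%, a gene counting if any of its windows held the letters. Counted by window, 3.52% of all 32851 windows held it. By function, 6 of 12 mucus and secreted goblet genes at 10 TPM or more with a window held TATAA, and 4 of 16 genes of antigen presentation. None of 76 respiratory chain genes, 63 proteasome and ubiquitin genes and 50 translation factor genes did. The letters CCGGAAG, which resemble a site of the ETS family, were read on both strands over the whole window. They were in 22.2% of the 72 most abundant genes, in 20.1% and 20.2% of the next classes at 1 TPM or more, and in 4.77% of genes under 1 TPM. The share was 15.4% over all genes with a window and 8.86% by window. CATAAA, which resembles a CDX site and shares the letters ATAA with the first motif, was searched on both strands. It was in 15.3% of the 72, 8.06% and 8.03% of the next classes and 12.4% of genes under 1 TPM. Its share was 9.42% over all genes with a window and 11.9% by window. These are matches of letters and do not show that a factor binds.

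Transcription factors read such promoters and set cell identity, and the crypts held many of them at modest levels. Of 631 genes in the families searched by name, 394 (62.4%) were at 1 TPM or more, 243 at 10 TPM or more and 35 at 100 TPM or more, and together they held 1.52% ± 0.0613 of nuclear transcripts. Among all nuclear protein-coding genes, 67.1% were at 1 TPM or more. Elf3, an ETS factor of differentiated epithelium, led in every library with 802, 789, 805, 811 and 783 TPM (mean 798 ± 11.6). Its CV was 1.46% on this scale and 4.93% with size factors, which put replicate 2 highest and replicate 5 lowest. Cdx1, a caudal-type homeobox factor of the intestine, followed with 478, 548, 559, 624 and 643 (mean 570.3 ± 65.8), and its relative Cdx2, which specifies intestinal identity, was at 332, 330, 370.2, 379 and 336 (mean 349 ± 23.5). The ranges of the Cdx pair did not overlap, Cdx1 being higher in every library.

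Ehf, a second epithelial ETS factor, was at 356, 287, 489, 467 and 513 TPM (mean 422 ± 96.8), and Hnf4a, a nuclear receptor that drives enterocyte genes, at 450, 422, 391, 382 and 450.3 (mean 419 ± 32.1). Ehf was low in replicates 1 and 2, and Hnf4a was level throughout. Their means were nearly equal and their order changed between libraries. Atf4, Creb3l1 and Xbp1, factors of the bZIP family tied to the stress response of the secretory pathway, were at 406 ± 18.2, 384 ± 53.7 and 292 ± 31.9, and Creb3l4 was at 192 ± 15.1. The bZIP family as a whole summed to 2719 ± 55.6 TPM, the largest of 10 sets, ahead of the mixed remainder at 2525 ± 163. The ETS family summed to 2057 ± 226, the homeobox family to 1765 ± 142 and nuclear receptors to 1602 ± 84.3.

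Factors of the secretory lineage were well represented. Spdef, which matures goblet cells, was at 235, 238, 424, 420.3 and 390.5 TPM (mean 342 ± 96.5), and Atoh1, the switch to the secretory fate, at 159, 149, 276, 262 and 203 (mean 209.8 ± 57.9). Both were lowest in replicates 1 and 2, with Atoh1 highest in replicates 3 and 4. Foxa3, a forkhead factor of goblet cells, showed the same low pair at 103, 94.1, 145, 131 and 136 (mean 122 ± 22.2). Klf4, a factor of mature goblet cells and surface epithelium, ran the other way with 329, 295, 284, 269 and 219 (mean 279 ± 40.3), while Klf5, which is found in dividing crypt cells, had 282, 236, 343, 325 and 342 (mean 306 ± 46.2). Sox9, a factor of the crypt base, led its family at 51.4, 42.7, 60.6, 56.5 and 68.8 (mean 56.01 ± 9.76). Of the immune response factors, Irf1, a target and mediator of interferon signalling, led at 237, 246, 216, 226 and 141 (mean 213 ± 41.8), with replicate 5 low. Nfe2l2, which switches on antioxidant genes, closed the leading 15 at 192 ± 20.02, and Hmga1, a chromatin protein with AT hooks, led the mixed remainder at 182 ± 17.03. Of the 14 neighbouring pairs in this order only Elf3 and Cdx1 had ranges that did not overlap, and 3 pairs kept 1 order in all 5 libraries.

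Receptors carry signals from hormones, matrix and microbes into the cell. Of 602 receptor genes, 310 (51.5%) were at 1 TPM or more and 29 at 100 TPM or more. Pigr, which carries IgA across the epithelium into the gut, stood far above the others with 3859, 3462, 4486, 4363 and 5451 TPM (mean 4324 ± 751). Replicate 5 was its highest library, and no other receptor reached 1000 TPM. Clec2d and Clec2h, C-type lectins that natural killer cell receptors of the Nkrp1 family recognise, followed with 497 ± 55.1 and 492, 489, 339, 349.7 and 314 (mean 397 ± 86.8). Clec2h was highest in replicates 1 and 2.

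Gucy2c, the receptor for guanylin and thus for the product of the abundant Guca2a, was at 362, 340.5, 362, 383 and 413 TPM (mean 372 ± 27.2). Guca2a was highest in replicates 1 and 2, and Gucy2c in replicate 5. Gucy2c was the only one of 8 genes of its subclass at 1 TPM or more. Adgrg7, an adhesion receptor, led the 294 G protein-coupled receptors at 361 ± 18.5, of which 106 were at 1 TPM or more. F2rl1, the protease-activated receptor 2, was at 156, 155, 151, 155 and 156 (mean 155 ± 2.18) and differed little between libraries, and Gprc5a, an orphan receptor of epithelia, was at 175, 179, 148, 154 and 90.2 (mean 149 ± 35.6), low in replicate 5. Tfrc, the transferrin receptor for iron uptake, ran from 214 in replicate 2 to 433 in replicate 5 (mean 288 ± 84.6). Receptors of matrix and traffic among the leading 15 were Sdc4, a heparan sulfate proteoglycan (237 ± 9.55), Itgb1, the beta-1 integrin subunit (222 ± 4.80), Lrp10 of the lipoprotein receptor family (169.6 ± 12.9) and M6pr, which sorts lysosomal enzymes (161 ± 10.1).

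Innate and cytokine receptors completed the list. Nlrp6, a cytosolic sensor of the gut epithelium, was at 205, 204, 201, 204 and 257 TPM (mean 214 ± 24.3), Ifngr1, a chain of the interferon-gamma receptor, at 197 ± 22.5, and Cd14, the co-receptor for lipopolysaccharide, at 174 ± 21.5. Nlrp6 was level in 4 libraries and higher in replicate 5, while Ifngr1 and Cd14 were lowest there. Erbb3, a partner of the epidermal growth factor receptor family, led the receptor tyrosine kinases at 132 ± 14.9, Ltbr, the lymphotoxin beta receptor, the tumour necrosis factor receptors at 148 ± 8.68, Plxnb2, a semaphorin receptor, the guidance and Notch set at 147 ± 5.42, and Acvr1b, an activin receptor, the TGF-beta and BMP set at 65.8 ± 8.13.

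Transporters move solutes and ions across membranes. Of 668 genes, 364 (54.5%) were at 1 TPM or more, and the class sums of 22213, 21672, 22090.5, 22379.5 and 22843 TPM had a mean of 22239.5 ± 427. The CV of the class sum was 1.92%, below the 4.02% of transcription factors and the 5.73% of receptors, but with size factors the order turned to 2.72%, 1.5% and 1.46%. Slc25a5, which exchanges ADP and ATP across the inner mitochondrial membrane, led in every library with 2268, 2299, 2259.6, 2288 and 2329 TPM (mean 2289 ± 27.4). Its CV was 1.20%. Atp1b1, the beta subunit of the sodium pump of the basolateral membrane, was at 865, 783, 891, 887 and 1054 (mean 896 ± 98.4), highest in replicate 5 under both scalings. Atp2a3, a calcium pump of the endoplasmic reticulum, was at 879 ± 119.8.

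Mitochondrial and vesicular transporters filled much of the rest. Vdac1 and Vdac2, channels of the outer mitochondrial membrane, were at 477 ± 4.50 and 277 ± 9.001, and Slc25a3, the mitochondrial phosphate carrier, at 397 ± 16.2. Slc35a1, which brings CMP-sialic acid into the Golgi, was at 305 ± 19.9, and Atp6v1g1 and Atp6ap2, parts of the vacuolar proton pump, at 284 ± 16.9 and 275 ± 14.2. On the scale of the nuclear total, the vacuolar pump genes had the smallest median CV of the transporter subclasses, 5.94% over 18 genes at 10 TPM or more. With size factors the CV of their sum rose from 1.85% to 4.52%, while that of the P-type ATPases fell from 7.56% to 2.99%. Of the solute carriers outside the mitochondrial ones, Slc44a4, a transporter of thiamine pyrophosphate in the colon, led with 423, 419, 373, 393 and 325 (mean 387 ± 39.9). Slc50a1, a sugar transporter (271 ± 19.6), and Slc39a4, which takes up zinc (239.6 ± 17.5), were lower. Kcne3, a potassium channel subunit that supports chloride secretion, was at 225, 236, 385, 386 and 389.8 (mean 324 ± 85.8), with replicates 1 and 2 clearly below the other 3. Aqp1 led the aquaporins at 268 ± 23.2, and Abcb1a, the efflux pump P-glycoprotein, led the ABC transporters at 231, 212, 106, 94.6 and 94.98 (mean 148 ± 67.96), where replicates 1 and 2 were high.

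Transporters of salt and water did not share a library pattern, and the genes in this paragraph were picked after their values were seen. Slc26a3, which exchanges chloride for bicarbonate, was at 135, 123, 67.2, 71.3 and 66.5 TPM, and Slc9a3, the apical sodium-proton exchanger, at 81.6, 73.1, 40.03, 39.7 and 22.1. Aqp8, a colonocyte water channel, was at 236, 252, 199.6, 232 and 32.7, low in replicate 5 alone. Of the epithelial sodium channel, Scnn1a was at 59.2 ± 1.76 and Scnn1b at 28.8 ± 1.71, whereas Scnn1g was at 0.896 ± 0.370 with 11 to 34 counts per library. Cftr, the chloride channel of crypt secretion, was at 66.04, 59.1, 68.2, 72.4 and 101 and Slc12a2, the basolateral cotransporter that feeds it, at 173, 144, 190.1, 186 and 229. The absorptive exchangers were thus highest in replicates 1 and 2, and Cftr and Slc12a2 in replicate 5.

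**Figure D2:**
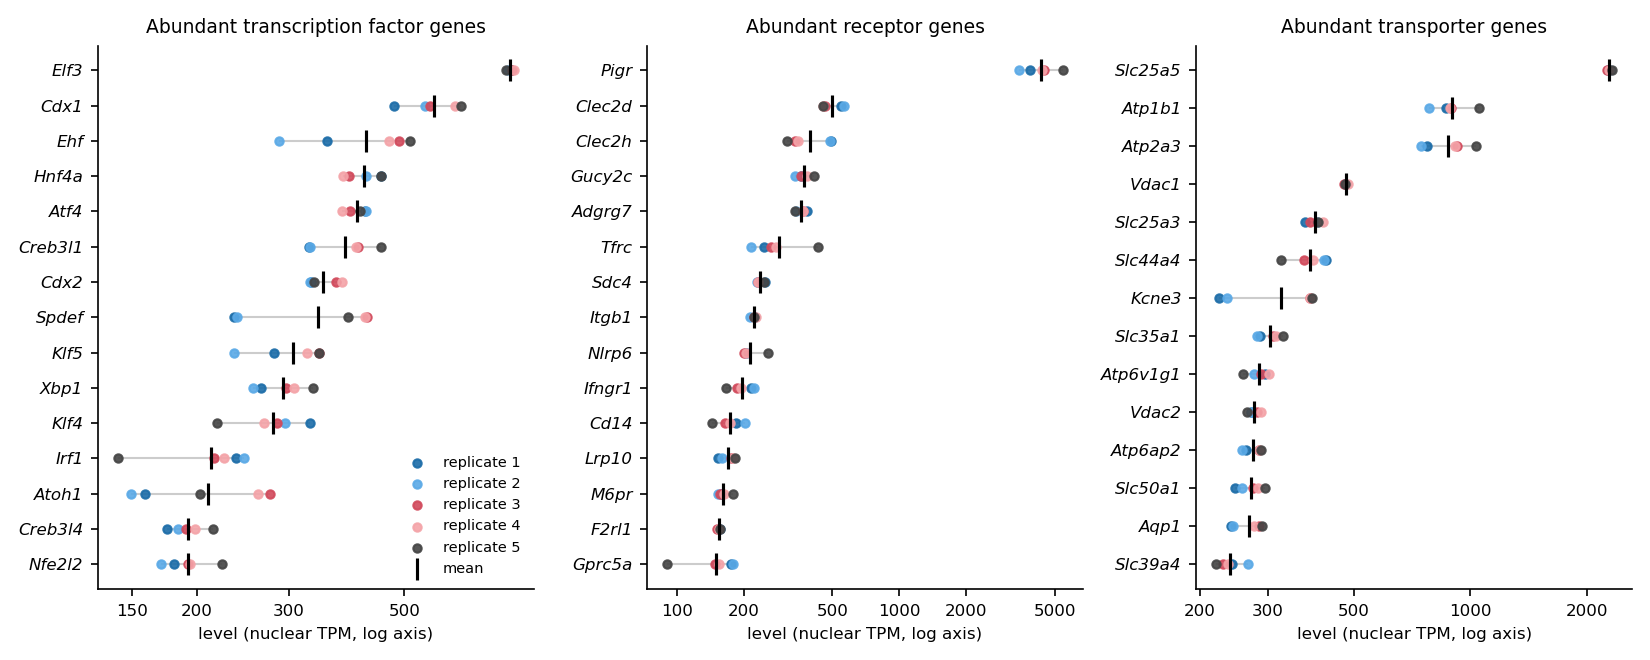
Abundant transcription factor, receptor and transporter genes, named by rank, are shown from left to right on log axes of nuclear TPM, with a coloured point per NL-shGFP library, a grey line over the range and a black tick at the mean. Elf3, Pigr and Slc25a5 lead their classes in all 5 libraries, while Irf1, Gprc5a and Slc44a4 have replicate 5 as the low point.

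The markers of the cell lineages spanned more than 3 orders of magnitude in level. Car1, the colonocyte marker, was at 18831, 19309, 7716, 7782 and 5984 TPM, and Muc2, the goblet marker, at the levels given above. Chga, chromogranin A of enteroendocrine cells, was at 311, 333, 128, 117 and 75.5 (mean 193 ± 119.5, rank 839). Dclk1, the tuft marker, was at 8.21, 6.57, 6.26, 5.49 and 5.60 (mean 6.42 ± 1.09, rank 10301), and Lgr5, the stem cell marker, at 5.01, 4.13, 6.64, 5.76 and 11.6 (mean 6.62 ± 2.91, rank 10205). Each of the 5 was found in every library, Lgr5 with 409 to 929 counts and Dclk1 with 670 to 1006. Car1 and Chga were both highest in replicates 1 and 2 and lowest in replicate 5, and Lgr5 was highest in replicate 5.

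All 25 goblet cell genes on the list were at 10 TPM or more, with summed levels of 60613, 63609.6, 55717, 53541 and 53674 TPM. The leading 3 were Spink4, Agr2 and Retnlb. Among further members, Clca1, a secreted protein of the mucus, ran from 773 in replicate 2 to 132 in replicate 5, and Fcgbp, a large mucus protein that binds the Fc part of IgG, was at 347, 342, 271, 244 and 196. Ang4, an antibacterial ribonuclease, had 257, 274, 117, 118 and 105. These 3 mucus and defence genes were highest in replicates 1 and 2, where Spdef, Atoh1 and Foxa3 were lowest. On the whole list, 9 of 25 members were higher in replicates 1 and 2 than in the other 3 libraries and 11 were lower, where all protein-coding genes gave 14.1% and 36.5%. With size factors the counts became 10 and 8, against 22.6% and 23.4%.

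The colonocyte list varied more between libraries than the goblet cell list, whose highest sum was 1.19 times the lowest. Its sums were 48129, 48903, 30065, 30607 and 22851 TPM, the highest 2.14 times the lowest. Behind Car1, Lypd8 and the steady Krt19 stood Krt20, a keratin of mature surface cells, at 1562, 1550.3, 906, 977 and 447 (mean 1089 ± 473), and Cyp2c55, a cytochrome P450 of the colon, at 1302 ± 885. Car4, a membrane-bound carbonic anhydrase, was at 559, 589, 581, 624 and 121, and Saa1, an acute phase protein also made by the gut epithelium, at 325, 333, 398, 421 and 80.3. Car4 and Saa1 were low in replicate 5 only. Of 28 members at 10 TPM or more, 18 were higher in replicates 1 and 2 than in every other library and 20 were lowest in replicate 5, against 14.1% and 17.9% of all genes. Size factors gave 21 and 22 of 28, against 22.6% and 31.6%.

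The stem cell list was low and ran the opposite way. Its sums were 893, 805, 968, 953 and 1135 TPM. Its most abundant members were Slc12a2, Prom1, a cholesterol-binding membrane protein (171 ± 8.54), and Lrig1, a brake on growth factor receptors (105, 105, 105, 102 and 134, mean 110.3 ± 13.3). Ascl2, a transcription factor of the stem cell, was at 8.36, 8.12, 14.1, 15.99 and 15.04, Smoc2, a secreted matrix protein of stem cells, at 21.6, 21.5, 25.9, 26.8 and 47.8, and Axin2, a target of Wnt signalling, at 18.6, 16.4, 21.6, 21.8 and 20.4. Replicate 5 was highest for 10 of the 14 members at 10 TPM or more, also with size factors, where 51.5% and 31.1% of all genes were. Olfm4, a stem cell marker of the small intestine and of human colon, was near 0 with 4 to 56 counts per library. The 30 proliferation genes, all at 10 TPM or more, did not follow the stem cell list, with sums of 3153, 3074, 2789.8, 2849 and 2602 TPM and Mki67, a protein of dividing cells, at 182, 140.1, 139.9, 135 and 133.

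Hormone genes were a small and uneven group. The enteroendocrine sums were 1743, 1743, 1120, 1027 and 988 TPM over 35 genes, of which 14 were at 10 TPM or more. Chgb, chromogranin B, led with 573, 551, 328, 299.7 and 237 (mean 398 ± 154), and Gcg, the proglucagon gene that gives GLP-1 in the gut, was second with 212, 192, 206, 190.1 and 254 (mean 211 ± 25.9). Pyy, the peptide YY of L cells, was at 138, 136, 113, 100.3 and 113, and Insl5, an L cell hormone of the distal gut, at 19.4, 25.4, 20.8, 21.2 and 42.4. Sct, secretin, was at 219.6, 228, 98.3, 76.6 and 80.04, and Tph1, which makes serotonin in enterochromaffin cells, at 28.3, 25.1, 11.8, 12.5 and 5.53. Chga, Sct and Tph1 were higher in replicates 1 and 2 than in every other library, while Gcg and Insl5 were highest in replicate 5, so the hormone genes did not vary as a block. Neurog3, the factor that starts the endocrine fate, was at 6.31, 3.70, 9.97, 7.95 and 9.92, with its low values in replicates 1 and 2. Gip, a hormone of the small intestine, had 2 counts in replicate 1 and none elsewhere.

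The tuft cell sums were 218, 215, 181, 181 and 147 TPM over 17 genes. Among its most abundant members were Sh2d6 with 21.3 ± 4.36 and Rgs13, a regulator of G protein signalling, with 19.6 ± 3.69. Trpm5, the taste channel of tuft cells, was at 15.2, 12.5, 9.91, 10.1 and 9.41, and Pou2f3, the factor that makes tuft cells, at 4.44, 3.59, 4.10, 4.09 and 2.98. All were detected in every library, and Il25, the cytokine of tuft cells, had 0 to 8 counts. Reg4 and Cd24a, which lead the list of deep crypt secretory cells, were at 3718, 3865, 1667, 1102 and 1967 (mean 2464 ± 1253) and 1532 ± 87.7. Reg4 differed even between the close replicates 3 and 4.

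**Figure D3:**
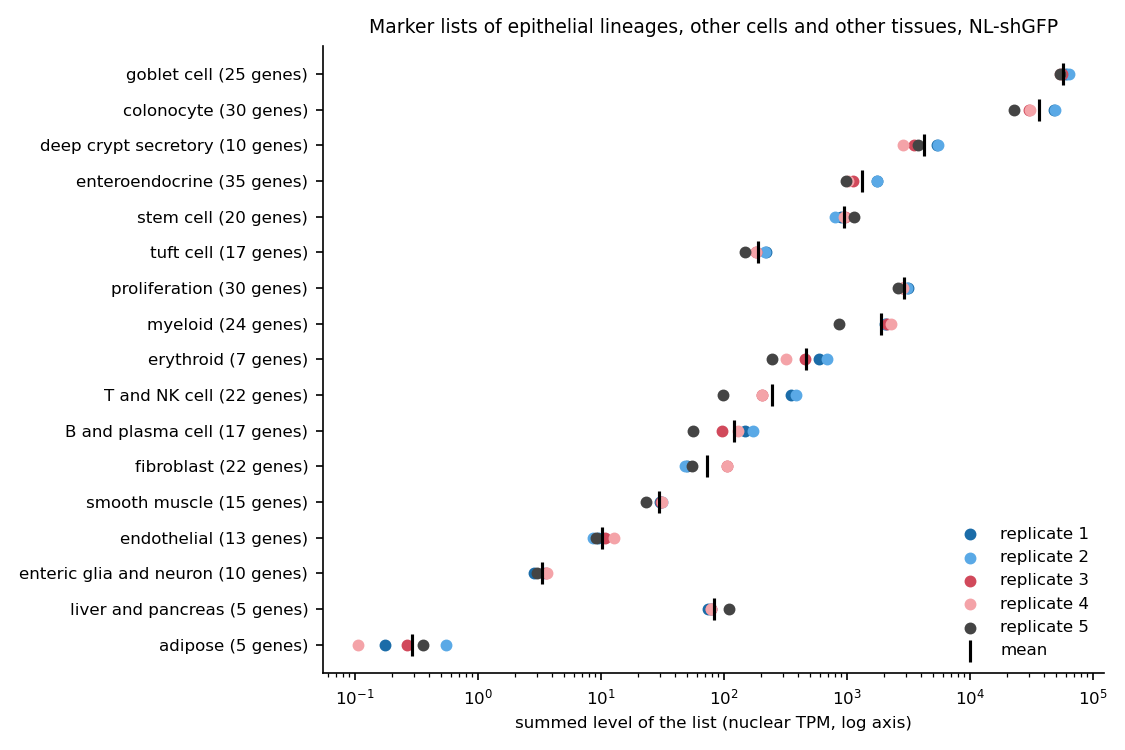
The horizontal log axis gives the summed level in nuclear TPM of marker lists (vertical axis, with the number of genes), a coloured point per NL-shGFP library and a black tick at the mean. Goblet and colonocyte lists lie near the right edge, and glial, endothelial and adipose lists lie furthest to the left.

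The labelled tissue was checked against markers of other cells and tissues. All 20 genes of general epithelial identity were at 10 TPM or more and summed to 22953 ± 1102 TPM, with Epcam, an adhesion protein of epithelia, at 2402, 2414, 2355, 2391 and 2345 (mean 2381 ± 30.01). Fibroblast, smooth muscle, endothelial and enteric glia or neuron lists summed to 72.9 ± 29.9, 29.5 ± 3.40, 10.2 ± 1.69 and 3.31 ± 0.345. Defining markers were close to 0, with Rspo3 of stromal cells at 0 counts in every library and Sox10 of glia at 0 to 2. Col3a1, a fibrillar collagen, was at 1.41, 0.854, 11.9, 10.9 and 6.07 and Vim, an intermediate filament of mesenchymal and immune cells, at 26.3, 27.1, 43.6, 45.5 and 15.7. Both were highest in replicates 3 and 4. Adipose genes summed to 0.291 ± 0.173, and Alb, serum albumin of the liver, had 8 to 20 counts.

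Immune cell genes were present at low to moderate levels and differed between libraries. The T and NK cell sums were 348, 383, 203, 204 and 97.8 TPM, led by the chemokine Ccl5 (123, 136, 67.5, 78.3 and 25.7) and the granzymes Gzmb (41.6, 48.7, 17.2, 18.1 and 7.65) and Gzma (41.4, 39.99, 18.7, 19.3 and 4.32), which kill target cells. The order of libraries was that of the colonocyte list. B and plasma cell genes summed to 121 ± 44.96, with Igkc, an immunoglobulin light chain, at 71.6 ± 30.9. Myeloid sums were 2055, 2096, 2123, 2277 and 867, with S100a9 of neutrophils at 858, 809, 642, 681 and 185 and Lyz2 of macrophages and neutrophils at 279, 327, 483, 505 and 191. S100a9 and Lyz2 agreed only in that replicate 5 was lowest. Haemoglobin genes of red cells summed with their list to 592, 689, 455, 322 and 248, led by Hbb-bs (250.1 ± 103). How far these cells take part in the differences between the libraries was not tested.

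Paneth cells and small intestine leave other traces. Of the 16 genes listed for them, Dmbt1, which colon also makes, held nearly all of the sum, followed by Slc5a1, a sodium-glucose cotransporter (114 ± 9.06), and Fabp6, a bile acid-binding protein of the ileum (50.2 ± 9.29). Apoa4 and Defa17 had 0 counts in every library, and Lct, lactase, had 0 to 6. A count of 0 allows up to 3 fragments, which is 6 counts where a fragment enters as 2, or 0.210 to 0.283 CPM of nuclear counts in these libraries, for counting error only. Alpi, the alkaline phosphatase of the enterocyte brush border, was at 18.7, 17.7, 14.1, 15.3 and 8.64. Alpl, the gene targeted in another group of the series, had 2 counts in replicate 2 and none in the other 4 libraries.

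Position along the gut is written in the Hox genes. Of 43 position genes in the table, 16 were at 10 TPM or more, led by Cdx1, Cdx2 and Hoxb6 (135, 136, 109, 102 and 114, mean 119 ± 15.6). Hoxb9 was at 105 ± 3.16 and Hoxb7 at 64.1 ± 2.29. Of the Hox genes, these of the HoxB cluster led, while Hoxb13, expressed towards the rectum, was at 9.80, 10.002, 14.8, 17.5 and 12.2 and Hoxd13 at 4.61, 2.89, 4.03, 4.09 and 0.772. Hoxc9, Hoxc10 and Hoxc11 had 0 counts in every library, and Gata4 and Pdx1, of the proximal gut, were at 1.76 ± 0.434 and 0.244 ± 0.203. The list sums of 1418, 1445, 1566, 1623 and 1695 TPM were highest in replicate 5, but with size factors replicate 4 was highest.

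Sex-linked genes matched male mice in all 5 libraries, which the labels do not state. Eif2s3y, Ddx3y and Kdm5d, on the Y chromosome, were at 47.4 ± 5.27, 25.1 ± 4.23 and 11.01 ± 1.32 TPM, and Xist, the RNA of the inactive X chromosome, had 2 to 10 counts. Clock genes, whose levels depend on the time of day, summed to 253, 247, 248, 249 and 274 TPM, with Bhlhe40 (61.4 ± 2.24) and Nfil3 (30.6 ± 4.23) among the most abundant. Arntl, the positive arm of the clock, was at 19.7, 17.8, 17.8, 17.2 and 16.03 and Dbp, a gene it drives, at 0.756, 0.667, 0.651, 1.36 and 1.15. Per2, of the negative arm, was at 7.21, 6.09, 11.5, 10.2 and 24.6, and replicate 5 was highest. The sum over the list was highest in replicate 5 too, but with size factors in replicate 2.

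Response programmes separated replicate 5 from the others. Interferon-induced genes summed to 3529, 3545, 2894, 3032 and 1167 TPM, and all 31 members at 10 TPM or more were lowest in replicate 5, also with size factors, where 17.9% and 31.6% of all genes were. Gbp2, a guanylate-binding protein that acts on intracellular microbes, was at 351, 326, 294, 291 and 51.4 TPM (mean 263 ± 121), Bst2, which tethers viruses, at 233, 233, 249, 264 and 154, and Isg15, a ubiquitin-like modifier, at 306, 335, 213, 214 and 46.7. The fall to replicate 5 was 7.17-fold from the highest library for Isg15 and 6.82-fold for Gbp2. MHC class II genes, which present antigen on immune cells and, after stimulation, on epithelium, summed to 1327, 1427, 1752, 1902 and 492. Cd74, the invariant chain, led with 613, 669, 864, 953 and 248, followed by H2-Ab1 (277, 300.1, 331, 353 and 97.2) and H2-Eb1 (183, 198, 255, 259 and 65.7). Here replicates 3 and 4 were highest, which was not the order of the interferon-induced list, and all 6 members at 10 TPM or more were lowest in replicate 5. The myeloid sums, at 867 TPM in replicate 5 against 2055 to 2277 in the others, and the T and NK cell sums, at 97.8 against 203 to 383, were lowest in the same library, and their part in the MHC class II and interferon-induced values was not tested.

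Heat shock genes ran the other way. Their sums were 5553, 5409.9, 6496, 6014 and 8449 TPM. All 13 members at 10 TPM or more were highest in replicate 5, also with size factors, where 51.5% and 31.1% of all genes were. Hspa8, the constitutive HSP70 chaperone, was at 1989.7, 1997, 2241, 2113 and 3023 (mean 2273 ± 432), Hsp90ab1 at 1821, 1761, 2222, 2126 and 2726 and the mitochondrial chaperonin Hspd1 at 639, 604, 624, 609.6 and 842. Hspa1b, the inducible HSP70, was at 38.6, 36.8, 143, 54.4 and 216, high in replicate 3 as well as in replicate 5. Immediate early genes, which switch on within minutes of a stimulus, summed to 1349, 1297, 1095, 1085 and 888, with Btg2 (136 ± 19.9), Klf6 (128 ± 32.3) and Ier2 (128 ± 7.64) the most abundant and Fos at 143, 132, 84.8, 82.1 and 63.9. They were highest in replicates 1 and 2 and lowest in replicate 5 as a sum, opposite to the heat shock genes.

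**Figure D4:**
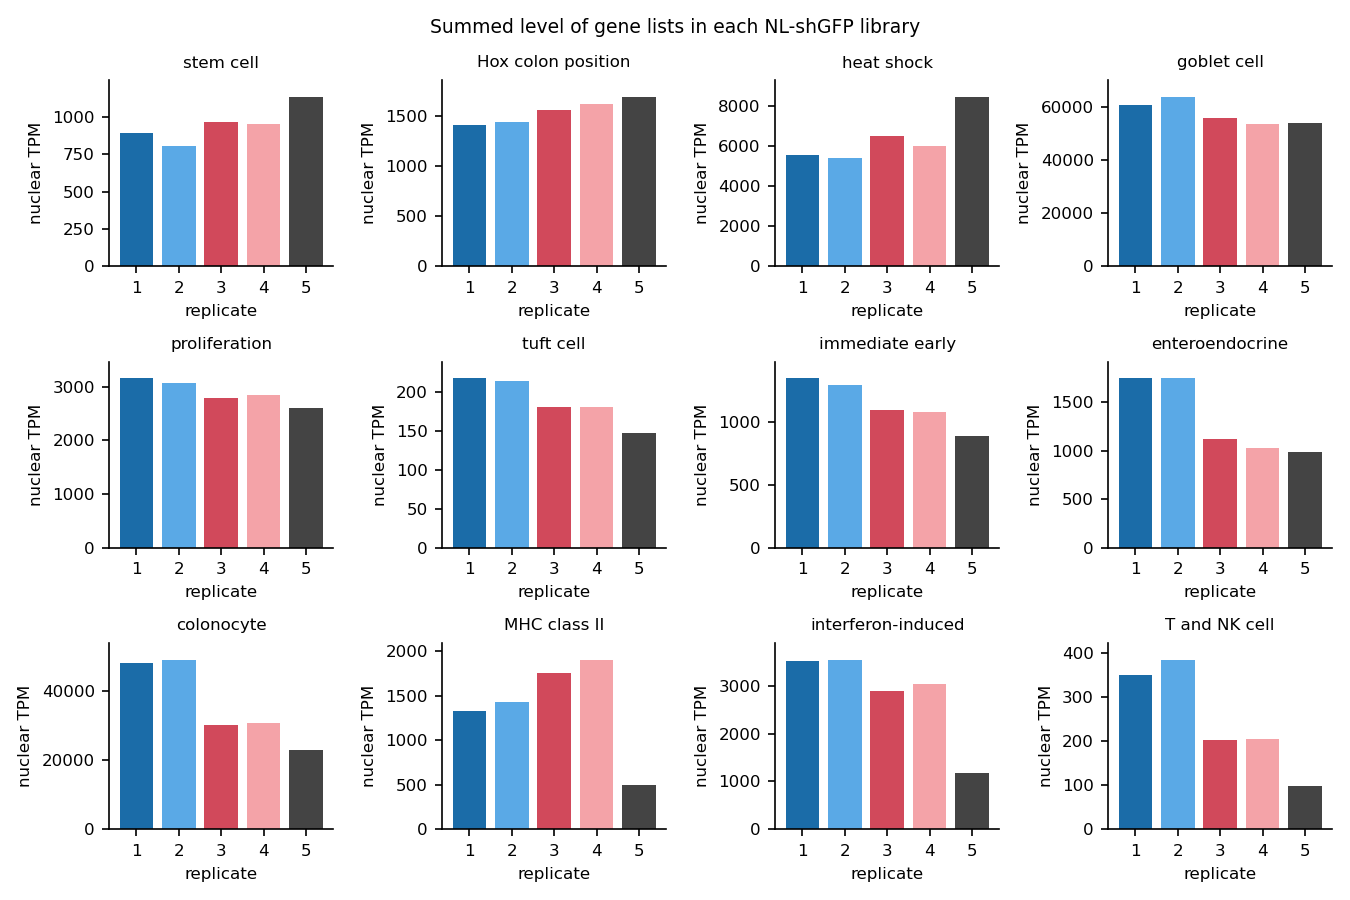
Each panel is a gene list, the bars are the summed level in nuclear TPM (vertical axis, from 0) in NL-shGFP replicates 1 to 5 (horizontal axis), and colours mark the libraries. Replicates 1 and 2 resemble each other, as do 3 and 4, and replicate 5 is highest for the stem cell and heat shock lists and lowest for the colonocyte, MHC class II, interferon-induced and T and NK cell lists.

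The spread between libraries was described for the 8262 protein-coding genes at 10 TPM or more with at least 10 counts in every library. Their median CV was 10.3%, with 4.65% at the 10th and 21.2% at the 90th percentile, while counting alone would give a median of 3.88%. The median CV was 19.6% at 1 to 10 TPM, 10.8% at 10 to 100, 7.78% at 100 to 1000 and 8.02% at 1000 TPM or more. At 1 to 10 TPM counting alone would give a median of 10.8%, and the median CV beyond counting, subtracted as squares, was 14.9%. From 1000 TPM upwards these were 0.907% and 7.94%. Of the classes, transcription factors had a median CV of 12.4% over 243 genes, receptors 12.4% over 144 and transporters 10.6% over 237. Interferon-induced genes had 39.2% over 31 and MHC class II genes 40.3% over 6.

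The 12 narrowest genes had CVs of 0.795% to 1.27%, and for 10 of them this was below the counting CV, and the set depended on the scale. With size factors the same 12 genes had CVs of 3.97% to 5.61%, none of them was among the 12 narrowest, and the median over all genes was 8.86%. Cnn3, an actin-binding calponin, was at 100.1, 102, 101, 102 and 101 TPM and Pgam1, an enzyme of glycolysis, at 165, 167, 167, 168 and 169. Mgst1, a microsomal glutathione transferase, was at 340.2, 342, 341, 348 and 341 and Dhx32, an RNA helicase-like protein, at 96.3, 96.2, 95.4, 94.1 and 95.5. The highest and lowest libraries of each of these 4 were 1.02-fold apart. Epcam and Slc25a5 were the abundant members of the set and the only ones above their counting CV. The others were Vdac1, Fam32a (111), Slc35b3 (29.995), Itfg1 (23.2), Slc25a25 (10.1) and Rap1gds1 (25.5).

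The 12 widest genes had CVs of 71.4% to 163%, most followed the pairs of libraries, and 11 of the 12 were also the widest with size factors. Slc37a2, a sugar phosphate exchanger, was at 131, 129, 18.1, 14.5 and 30.7 TPM, Trpm6, a magnesium channel of the colon, at 20.96, 20.5, 4.38, 4.09 and 4.14, and Insig1, a regulator of sterol synthesis, at 245, 229, 60.5, 62.3 and 68.5. All 3 were high in replicates 1 and 2. The same was seen for Pmp22, a membrane protein (276, 270.5, 88.3, 85.2 and 39.8), Mal, a protein of apical transport (169, 157, 36.4, 39.8 and 52.9), Slc10a2, the ileal bile acid transporter (37.6, 34.8, 9.68, 8.04 and 5.48), Sprr2a2, a small proline-rich protein of epithelial barriers (238, 204, 72.9, 67.96 and 27.5), and Gal3st2c, a sulfotransferase (34.4, 27.4, 6.58, 5.58 and 13.3). Retnla, a resistin-like protein, and Tgm3, a transglutaminase, were instead high in replicates 3 and 4, at 5.67, 8.33, 58.1, 58.8 and 5.12 and 6.11, 5.34, 20.7, 20.03 and 2.44. Hspa1b is given above. Gapdh, the glycolytic enzyme often used as a reference gene, had the widest spread of all with 6.72, 108, 7.44, 5.87 and 10.2, and its mean of 27.7 was 7.57 without replicate 2. Its 71 pseudogene copies in the annotation summed to 82.9, 92.9, 87.3, 87.6 and 70.5 TPM, more than the gene in every library but replicate 2, so its level is uncertain.

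**Figure D5:**
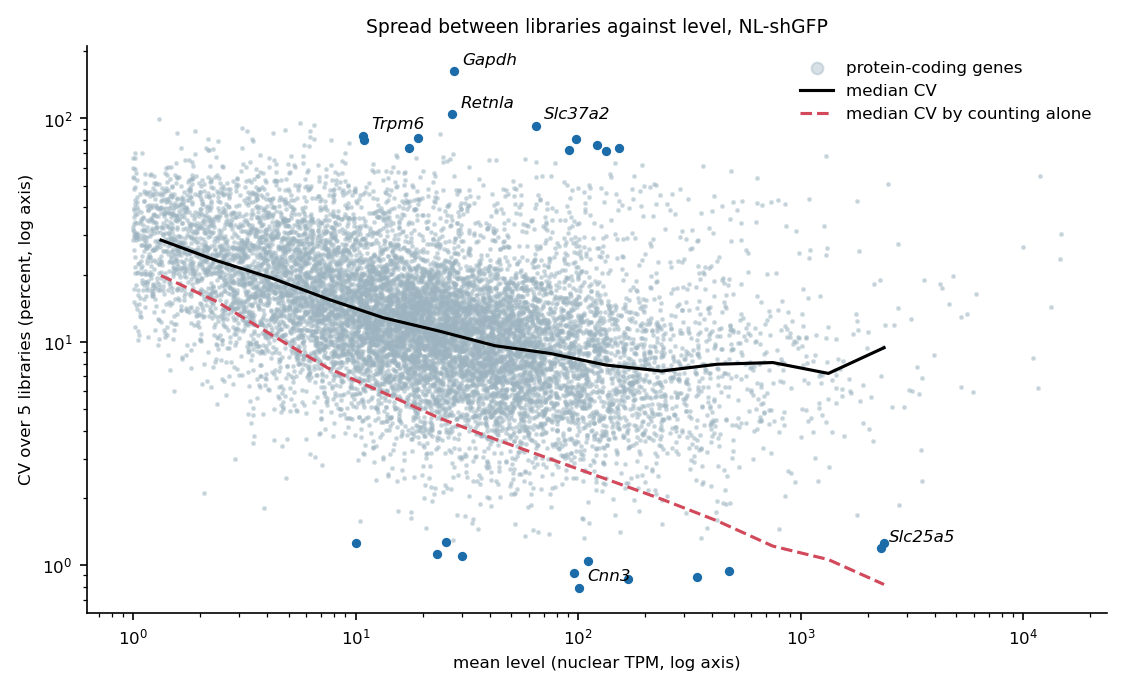
Each grey point is a protein-coding gene, with its mean level in nuclear TPM on the horizontal log axis and its CV over the 5 NL-shGFP libraries in percent on the vertical log axis. The black line is the median CV, the red dashed line the median CV that counting alone would give, and blue points are the 12 widest and 12 narrowest genes at 10 TPM or more, with Gapdh at 163%.

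Over all 8262 genes, the same pairs of libraries were seen. Replicates 1 and 2 lay above the other 3 for 14.1% and below them for 36.5% of genes, and with size factors for 22.6% and 23.4%. Replicates 3 and 4 lay above the other 3 for 9.15% and below for 9.04%. Replicate 5 was highest for 51.5% and lowest for 17.9%, and with size factors for 31.1% and 31.6%. The larger count of genes high in replicate 5 was thus not seen with size factors, whereas the interferon-induced, MHC class II and heat shock genes kept their place under both scalings.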

How the data were processed

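RNA of mouse colonic crypts was column-purified and enriched for mRNA, per the labels' protocols, and HISAT2 was used, per the submitters' processing notes, which name no version. The authors deposited a table of read counts per gene and a table of FPKM for all 15 samples. How reads were counted, the build, the gene models and the strand setting are not given in these sources, so overlapping and antisense genes could not be told apart. The length implied by the deposited counts and FPKM was the same in every library to within 3.1e-07 of its value, so both tables hold the same reads. Symbols came from a GENCODE M21 table for 32241 of 32939 genes, and 698 had none.

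Only the 5 NL-shGFP columns entered. FPKM was rescaled to the same total (TPM) over the 32914 nuclear genes. The 25 mitochondrially encoded genes were described separately. Classes were defined by gene symbol and 27 lists by hand (510 of 514 entries matched). The members and lists were chosen with earlier results of these data known. Pairs of libraries were compared by a chi-square per gene with at least 100 counts, and a CV needed at least 10 counts in every library. No groups were compared, so no difference between groups was tested. A single library far from the other 4 was found by the share of the range that its gap took (Dixon's criterion). Depth (33272941 to 41352922 counts) gave a counting CV of 3.88% for the median gene at 10 TPM or more.

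Genes named were the 30 most abundant protein-coding genes, the 15 most abundant of each class and the first of each subclass, 3 per list with the 5 markers, and the 12 widest and narrowest in CV. Predicted genes and pseudogenes were left out of these, and a few genes that met the rule are not reported here. Other list members and genes near 0 were named after their values were seen. Alternatives were other scalings (median-of-ratios size factors among them), other totals, the median, averaged pairs, other filters and each library left out. The code was tested on simulated data. Python 3.11.15, numpy 2.4.6, pandas 2.3.3, scipy 1.17.1 and matplotlib 3.10.9 were used.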

Additional observations from a re-analysis of the deposited data

Results flagged for a closer look

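In 22 of the values examined, 1 library stood apart from the other 4, its gap to the nearest of them taking most of the range. Chance alone gives this in about 1 of 20 groups. It was met by 15 of 173 named genes, 5 of 27 list sums and 2 of 45 class sums, and over all 8262 protein-coding genes at 10 TPM or more by 621 (7.52%), of which replicate 5 was the high one in 322 and the low one in 139. With size factors, 13 of the 22 still stood apart.

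Replicate 5 was the high library for the ribosomal protein Rpl32 at 3415 TPM, the elongation factor Eef2 at 3800 TPM and the chaperones Hspa8 at 3023 TPM and Hspd1 at 842 TPM, and these kept their place with size factors. It was also high for Retnlb at 7905 TPM, Nlrp6 at 257 TPM, Lrig1 at 134 TPM and Cela1, an elastase-like protease, at 103 TPM, which did not stand apart with size factors. Replicate 5 was the low library under both scalings for B2m, the light chain of MHC class I, at 3155 TPM and Gbp2 at 51.4 TPM. The same held for Bst2 at 154 TPM and Mptx1, a mucosal pentraxin, at 31.03 TPM. Irf1 at 141 TPM was lowest there under both scalings too, but stood apart only under the nuclear total.

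Among sums, replicate 5 was low for the myeloid list at 867 TPM and the smooth muscle list at 23.4 TPM and high for the liver and pancreas list at 109.9 TPM under both scalings. The top member held 94.5% of the liver and pancreas sum, and 2 of its 5 genes were at 1 TPM or more. That member was Cela1, so the sum largely repeats the value of Cela1 given above. Under the nuclear total alone, replicate 5 stood apart as low for the interferon-induced list at 1167 TPM and the histone class at 2635 TPM. There it also stood apart as high for the clock list at 274 TPM. With size factors replicate 5 was still lowest for the interferon-induced list, at 1089 against 2889 to 3754 in the others. It was also lowest for the histone class at 2460, but neither stood apart. Replicate 2 was the high library for the respiratory chain class at 42846 TPM and stood apart under the nuclear total alone. With size factors it was still the highest, at 45376. For single genes, replicate 2 was high for Gapdh at 108 TPM, and for Adipoq, the adipocyte hormone adiponectin, at 0.145 TPM, which rests on 2 counts there and 0 in the other 4 libraries.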

How the results depend on the processing

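The 15 summary values kept within their spread between libraries, or within 1.5 times for counts, except in 21 of 206 recomputations. The genes at 1 TPM or more, overall and in each class, the median CV and the mitochondrial share moved under none of the alternatives that gave a value. The tolerance of 1.5 times was wide for counts of genes. With FPKM as given, 11341 genes were at 1 or more in place of 15137. In the classes these were 309 transcription factors for 394, 210 receptors for 310 and 294 transporters for 364. With CPM the 3 classes rose to 412, 333 and 391. With each library left out in turn no value moved, and the median CV ran from 7.88% to 11.01%. For sums and shares this says little, since leaving out 1 of 5 libraries cannot shift a mean by its SD. The same holds for the median over libraries and for averaged pairs. Deposited FPKM without rescaling lowered every sum, since nuclear FPKM values add up to less than the TPM total. The shares in this setting were taken of all FPKM, mitochondrially encoded genes included, so they are not shares of nuclear transcripts. On that total the 10 most abundant nuclear genes came to 4.86%, the 100 most abundant to 14.2% and ribosomal proteins to 4.48%. List sums were 13028 FPKM for goblet, 8224 for colonocyte, 215 for stem, 302 for enteroendocrine, 42.7 for tuft and 56.4 for T and NK cells. CPM without division by length gave 8.42%, 21.2% and 5.19% for the same 3 shares, a goblet sum of 45677 and a stem sum of 2358. Without genes shorter than 500 bases the shares of the 10 and 100 most abundant were 9.68% and 30.002%, and the goblet sum was 42276. Over protein-coding genes alone the 10 most abundant held 11.5%, ribosomal proteins 10.7% and the goblet list 62634. Leaving out the mitochondrial copies, which was chosen after seeing the data, gave 30.4% for the 100 most abundant. Size factors, the median over libraries and averaged pairs moved none of the 15.

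Of the 173 named genes, 163 moved by at least their SD with FPKM as given, all down, and 135 with CPM (56 up and 79 down). The means of Gapdh (27.7 TPM) and Adipoq (0.0289 TPM) fell to 7.57 and 0 without replicate 2. The mitochondrial share could be recomputed only for the median, averaged pairs and left-out libraries, and the low-count filter and the log2 SD apply to the spread alone. The comparison of library patterns by scaling and the pseudogene copies were added after the data were seen. No paired analysis was possible because 1 group was described. Depth limits genes near 0, where 1 fragment sets the value, and genes that share sequence with copies.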

Other observations

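Mitochondrially encoded genes differed by orders of magnitude in the deposited FPKM although they lie on the same circular genome. The 5 genes with a near-complete nuclear copy in the annotation were all lower than mt-Co1, mt-Cytb and mt-Nd1. mt-Co1, the catalytic subunit of cytochrome c oxidase, was at 108463 ± 12136 FPKM, mt-Cytb of complex III at 52972 ± 6733 and mt-Nd1 of complex I at 37424 ± 7172. By contrast mt-Co2 was at 2433 ± 848, mt-Co3 at 2330.3 ± 2046, mt-Atp6 at 867 ± 513, mt-Nd4l at 224 ± 82.3 and mt-Nd3 at 152 ± 32.98. Nuclear pseudogenes hold 98.1% to 99.9% of the 31-base words of these 5 genes. The pseudogenes themselves stood at 1155 FPKM for the copy of mt-Co2 (Gm28661), 1101 for that of mt-Atp6 (Gm10925), 966 for that of mt-Co3 (Gm28437), 238 for that of mt-Nd4l (Gm10222) and 98.9 for that of mt-Nd3 (Gm28438). For mt-Co1 and mt-Nd4 the copies hold 29.6% and 62.8% of the gene's words. mt-Atp8, at 193 ± 63.1, was low as well, with 7.47% of its words in such a copy. Whether the counting of shared reads sets these values was not tested, and sums over mitochondrial genes are to be read with that limit.

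Among nuclear genes, further genes stood below their annotated pseudogene copies. Ppia, the prolyl isomerase cyclophilin A, was at 567 TPM against 1149 in its copies, Atp5l, a subunit of the ATP synthase, at 35.2 against 578, and Rpl21, a ribosomal protein, at 120.2 against 492. All processed pseudogenes together held 3.33% of nuclear transcripts. Whether reads of the genes were assigned to the copies was not tested, and the levels of both are uncertain.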
